A study of Dunaliella viridis with 39 samples.

Results

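Among the 18495 loci of the unicellular green alga Dunaliella viridis counted here, 44 were both abundant and nearly level in every group of the experiment, which makes them candidate reference transcripts. They were chosen from the measured values. Each deposited read count was divided by a size factor of its library (median-of-ratios scaling, called a normalized count here), and the 3 replicates of each of 13 groups were averaged. A locus was kept if the mean of the 13 group means was at least 1000 and if the highest and lowest group means differed by less than 0.5 on the log2 scale, a step of 1.41-fold. Of 610 loci that met the first limit, 7.21% also met the second. Because every group mean entered this choice, the levels and the differences between groups given for these loci are a description and carry no test.

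All cells were strain dumsii, kept at 23.5 °C in light that was always on, at 125 µmol photons m-2 s-1. The groups were cells without added nitrogen, cells with 5 mM L-glutamate, cells with 5 mM L-glutamine and cells with 5 mM potassium nitrate, each at 3, 27 and 51 h, and the nitrate-grown inoculum from which all of them were started. Per the labels, glutamate served as a starvation control with an amino acid present that the cells do not use. Each group had 3 libraries, 1 from each of 3 repeats of the whole experiment. The labels describe duplicate flasks within each repeat and do not say how these entered the libraries.

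Green algae that run out of nitrogen stop dividing, take apart part of their photosynthetic apparatus and store carbon as starch and lipid, and their mRNA changes widely. Transcripts that hold a level share of the mRNA through such a shift are used as internal references in quantitative PCR, where the amount of a target is read against theirs. A reference is usually checked both for a level mean between conditions and for low scatter between cultures, since either kind of drift passes into every target measured against it. The files name loci by number and pair no ID with a gene name, so the functions of the 44 loci are not given. Read counts are shares of the RNA in a library. A steady value therefore means steady against the median locus, not per cell. Loci that share reads with a near-identical copy could not be recognised without sequences, so any single count may hold reads of such a copy.

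The libraries held 3342102 to 41114965 counts each, and the median library 10192407. The 44 loci together took 46277 to 739129 of these counts, and the least covered single value was 244 reads. Sequencing was in 2 runs, with all libraries of repeat 1 in run 1, all of repeat 3 in run 2 and those of repeat 2 in either. Locus_10041, the most abundant locus, held 4.92% and 6.33% of the counts in glutamate 51 h replicate 3 and nitrate 3 h replicate 2, while every other library had 14.8% to 27.0% there. The third that stood apart was no nitrogen 51 h replicate 1, with 2718 loci at 0 counts, against at most 776 in any other library. The number of steady loci and the counts of calls among them are given with and without these 3 libraries. Descriptions of levels and of differences between groups include them.

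The range across groups, as the highest minus the lowest log2 group mean, had a median of 0.43 in the 44 loci and 1.26 in the other 566 abundant loci. It was under 0.3 in 3 of the 44 loci and at least 0.4 in 29. Just inside it were Locus_3437 and Locus_251 with ranges of 0.4975 and 0.4976, and just outside it Locus_488 with 0.51 and Locus_220 with 0.51. Just above the limit on abundance were Locus_4090 with a mean of 1017 normalized counts and Locus_1231 with 1044. Locus_3941 at 991 and Locus_5729 at 982 had ranges of 0.33 and 0.27 and fell short of it. A further 541 loci had a range under 0.5 at lower levels.

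Steady loci were found in each band of abundance. They made up 20 of the 307 loci with a mean of 1000 to 2000 normalized counts, 12 of the 177 from 2000 to 5000, 10 of the 70 from 5000 to 10000 and 2 of the 56 above that. The 31 loci with means above that of Locus_36, the most abundant of the 44, all had a range of at least 0.5.

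**Figure D1:**
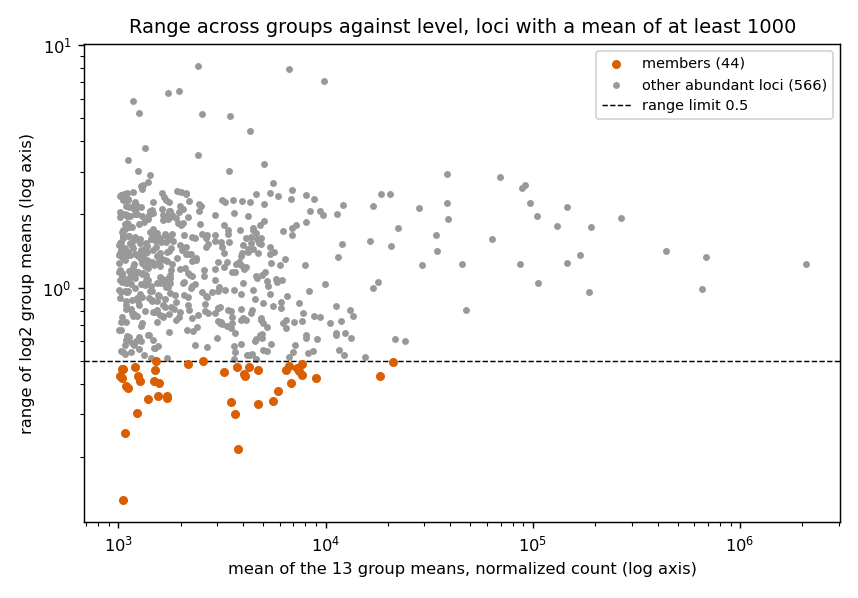
Range of log2 group means across the 13 groups (vertical, log axis) against the mean normalized count (horizontal, log axis) for the 610 loci with a mean of at least 1000. The 44 steady loci lie under the dashed limit of 0.5, and none of them has a mean above that of Locus_36 at 21254 normalized counts.

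Locus_2179 had the smallest range of the 44, 0.13. Without nitrogen it had 976, 1049 and 963 normalized counts in the 3 libraries of 3 h, 1087, 1093 and 1059 at 27 h, and 1188, 999 and 964 at 51 h. With glutamate the values were 1090.4, 1026 and 967 at 3 h, 1061, 951 and 997 at 27 h, and 1014, 905 and 1073 at 51 h. All of these libraries lay between 905 and 1188. With glutamine Locus_2179 had 1109, 1058 and 1050.1 at 3 h, 1089.8, 1073 and 1104 at 27 h, and 1096, 959 and 1167 at 51 h. With nitrate it had 908, 1172 and 1129 at 3 h, 1259, 994 and 1022 at 27 h, and 1004, 1092 and 1067 at 51 h, while the inoculum had 997, 1011 and 1118. The groups overlapped, and the lowest and the highest of all libraries, 905 and 1259, came from glutamate at 51 h and nitrate at 27 h. The lowest group mean was 996 ± 46.8 without nitrogen at 3 h and the highest 1092 ± 146 with nitrate at 27 h (SD, n = 3), a gap smaller than the SD in nitrate at 27 h.

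The other loci with the smallest ranges were Locus_234 at 0.22, Locus_2305 at 0.25, Locus_1622 at 0.30 and Locus_288 at 0.30. Locus_234 averaged 3519.6 ± 173 normalized counts without nitrogen at 3 h, its lowest group, and 4089 ± 63.6 in the inoculum, its highest (SD, n = 3). Its 39 libraries lay between 3236 and 4368, a spread of 1.35-fold that was the narrowest of the 44. Locus_2305 averaged 965 ± 153 without nitrogen at 27 h and 1149 ± 27.0 with nitrate at 27 h, its lowest and highest groups. Locus_1622 had its highest mean with glutamate at 51 h, 4006 ± 493, and its lowest in the inoculum, 3248 ± 27.8. Locus_288 averaged 1094 ± 179.7 with glutamate at 27 h and 1351 ± 70.8 with nitrate at 51 h. In Locus_2179, Locus_234 and Locus_3278 all 39 libraries lay within 1.5-fold of each other, which held for 0 of the other 566 abundant loci; this spread too holds the differences that the rule limited.

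Levels of different loci were compared on the authors' transcripts-per-million (TPM) values, which allow for length. The mean TPM of the 44 loci ran from 28.1 for Locus_3094 to 2833 for Locus_36, with a median of 204, against a median of 200 over the other abundant loci. The highest were Locus_36 at 2833, Locus_207 at 1843, Locus_161 at 1698, Locus_2391 at 1692 and Locus_132 at 1489 TPM. All 5 had ranges between 0.42 and 0.50. Locus_207 averaged 8843 ± 2915 normalized counts without nitrogen at 27 h, its highest group, and 6393 ± 514 with glutamine at 27 h, its lowest. Locus_161 was highest without nitrogen at 51 h, at 10371 ± 1965, and lowest without nitrogen at 3 h, at 7732 ± 1021. Locus_2391 averaged 4398 ± 409.9 with glutamine at 51 h and 3175 ± 665 with nitrate at 27 h, and Locus_132 averaged 8753 ± 2006 with glutamine at 51 h and 6398 ± 932 with glutamate at 27 h (SD, n = 3 each).

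Locus_36 had 17294, 20223 and 17062 normalized counts without nitrogen at 3 h, 20862, 18088 and 29718 at 27 h, and 24844, 18678 and 20325 at 51 h. With glutamate it had 23834, 21032 and 17431 at 3 h, 18685, 16225 and 20084 at 27 h, and 19259, 17397 and 22939 at 51 h. The highest of these, no nitrogen 27 h replicate 3, stood well above the libraries of the same group. With glutamine the values were 23778, 21089 and 19323 at 3 h, 20019, 18951 and 22442 at 27 h, and 24934, 22546 and 29444 at 51 h. Nitrate gave 19264, 23887 and 21071 at 3 h, 23268, 19649 and 21722 at 27 h, and 22670.1, 23954 and 24994 at 51 h, and the inoculum 20855, 19948 and 21122. Its highest group mean was glutamine at 51 h, 25642 ± 3503, and its lowest no nitrogen at 3 h, 18193 ± 1762 (SD, n = 3).

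**Figure D2:**
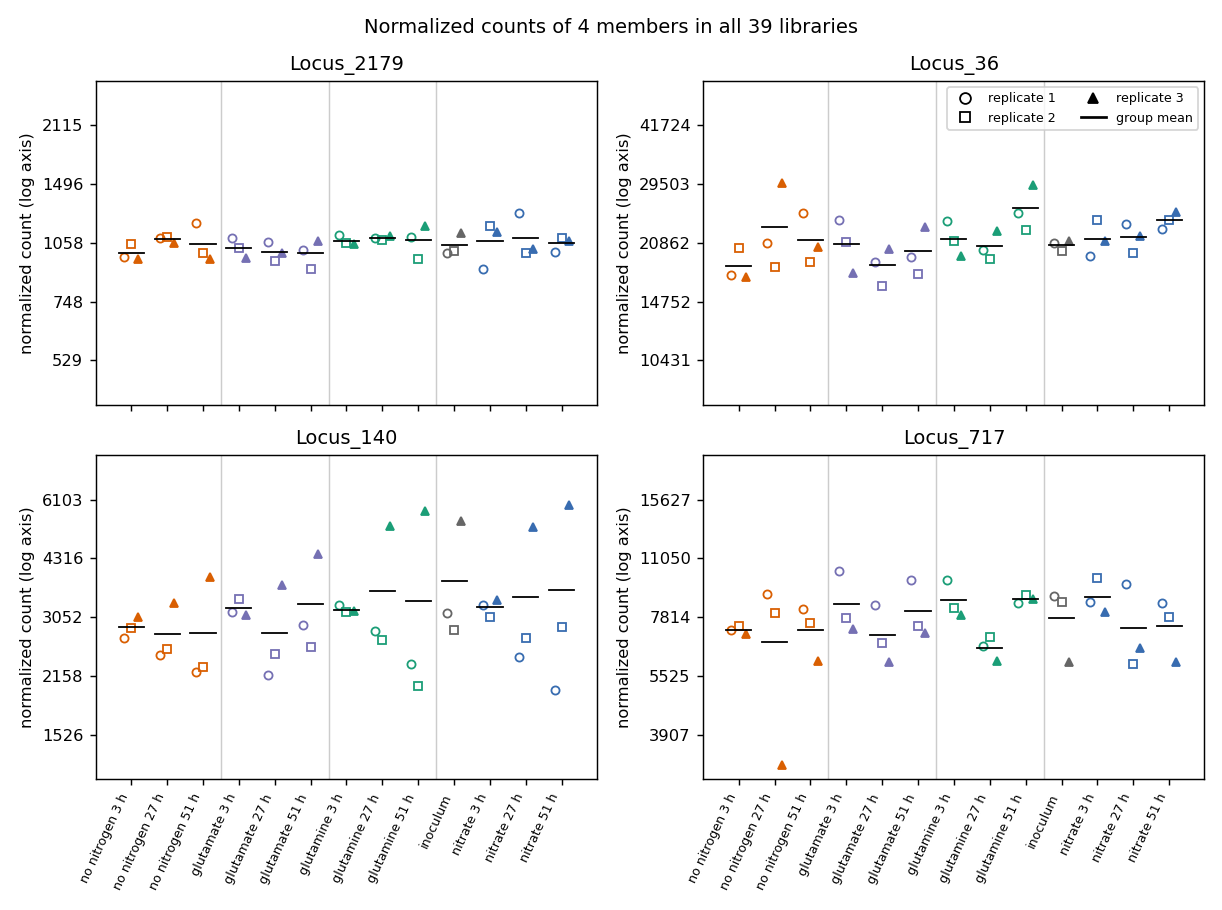
Normalized counts (vertical, log2-spaced axis of the same width in every panel) of 4 steady loci in all 39 libraries, by group; symbols give the replicate number and bars the mean of 3 libraries. Locus_2179 is level in all groups, Locus_36 scatters more, Locus_140 has high values in replicate 3, and Locus_717 has a low value in no nitrogen 27 h replicate 3.

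The 44 loci had their highest and lowest group means in different media. The highest group mean lay in a nitrate culture for 17 loci, in glutamine for 11, without nitrogen for 8, in glutamate for 5 and in the inoculum for 3. The lowest lay without nitrogen for 17 loci, in glutamine for 12, in glutamate for 10, in nitrate for 3 and in the inoculum for 2. By single groups, glutamine at 51 h was most often the highest, for 9 loci, and no nitrogen at 3 h most often the lowest, for 10. Nitrate at 3 h was the highest for 7 loci. Single libraries bear on these tallies. The median of the 44 loci lay above the other replicates of its group by 0.26 in log2 in nitrate 3 h replicate 2 and by 0.20 in glutamine 51 h replicate 3. The tallies were not repeated without these libraries, and the inoculum is 1 group where each medium has 3.

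Set against nitrate at the same time, the median difference of log2 group means over the 44 loci was -0.14 without nitrogen at 3 h, -0.03 at 27 h and -0.0049 at 51 h. Over the 610 abundant loci it was -0.14, -0.32 and -0.32 at the same times. At 27 h the difference of the 44 loci between no nitrogen and nitrate ran from -0.45 for Locus_251 to 0.47 for Locus_2391. Its median size was 0.20, against 0.62 over the 610 abundant loci. At 51 h it ran from -0.39 for Locus_3437 to 0.41 for Locus_2264, with a median size of 0.17 against 0.60. Glutamate against nitrate gave median sizes of 0.14 at 27 h and 0.14 at 51 h, and glutamine against nitrate 0.06 and 0.13. The controls of these comparisons are the same nitrate libraries. Nitrate at 3 h, no nitrogen at 51 h and glutamate at 51 h each hold a library that stands apart, and these differences were not repeated without them. The share of abundant loci that differed by at least 0.5 was 57.2% without nitrogen at 27 h and 57.4% at 51 h, and by the rule none of the 44 did so.

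**Figure D3:**
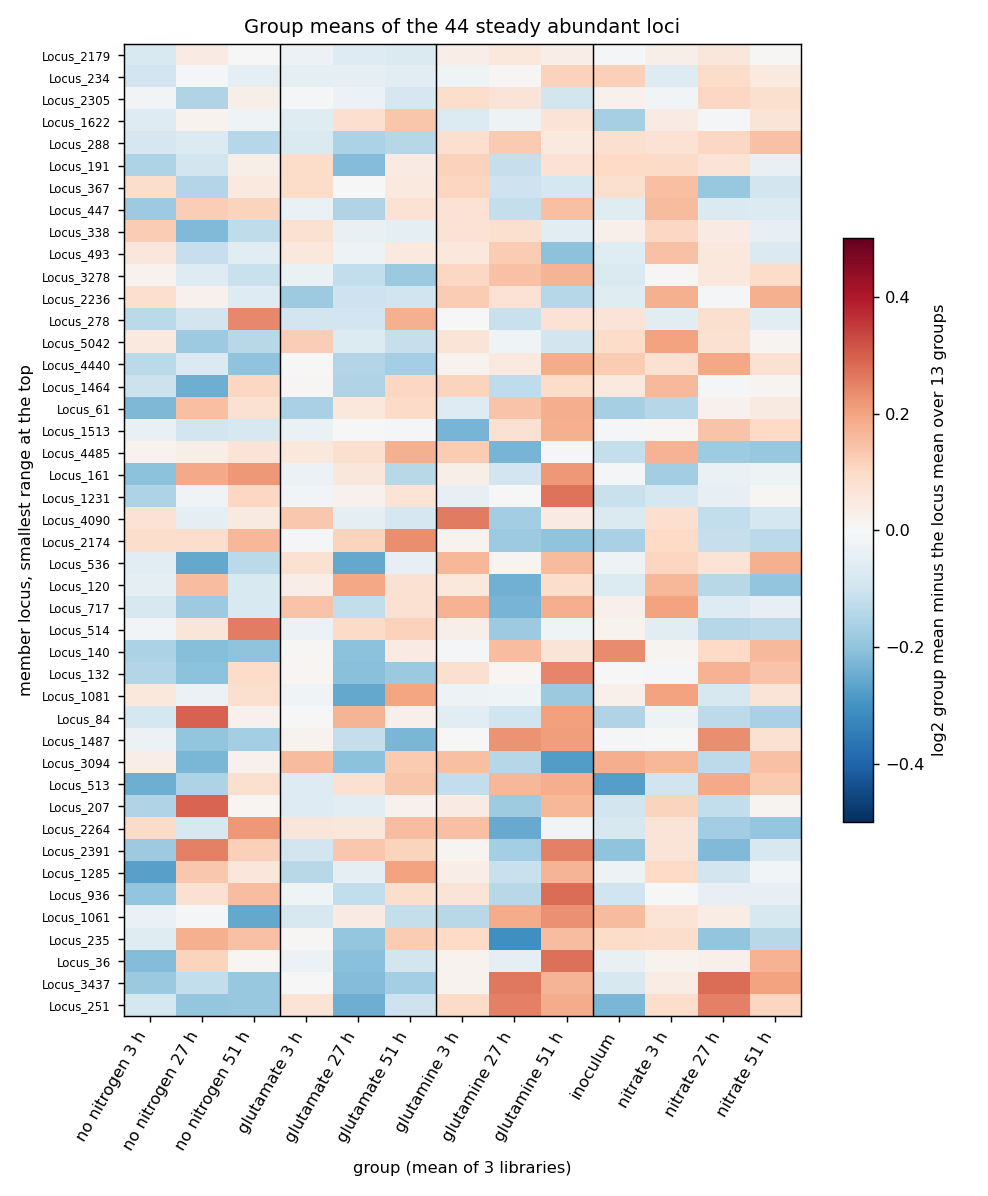
Log2 group mean minus the mean of the locus over the 13 groups (colour) for the 44 steady loci (rows, smallest range at the top) in each group (columns, mean of 3 libraries). No nitrogen at 3 h is the lowest group for 10 loci and glutamine at 51 h the highest for 9. The libraries that stand apart are included.

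In a quasi-likelihood fit of all 39 libraries by edgeR with Benjamini-Hochberg adjustment over 17569 tested loci, 5 of the 44 loci were called without nitrogen against nitrate at 27 h and 2 at 51 h. All 44 loci were among those tested. Over all tested loci 39.3% were called at 27 h and 41.5% at 51 h, and over the 610 abundant loci 53.0% and 54.4%. Since the rule used these contrasts, nothing is read from that gap. The calls were 2 higher and 3 lower at 27 h, where 20.2% and 19.1% of all tested loci and 15.6% and 37.4% of the abundant loci were called higher and lower. At 51 h they were 2 higher and 0 lower, where the shares were 20.9% and 20.6% of all tested loci and 13.4% and 41.0% of the abundant loci. At 27 h the called loci were Locus_2391 and Locus_84, higher by 0.46 and 0.41 in log2, and Locus_251, Locus_1487 and Locus_3437, with log2 fold changes of -0.46, -0.44 and -0.42. At 51 h they were Locus_514 and Locus_2174, higher by 0.39 and 0.31. Of these, Locus_84, Locus_1487 and Locus_514 were named after their values were seen. The 95% interval of the log2 fold change lay wholly within 0.5 of zero for 18 of the 44 loci (40.9%) at each time. Over the abundant loci the share was 8.20% at 27 h and 7.21% at 51 h. The rule limited these differences, so nothing is read from that gap either.

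The counts of calls changed with single libraries. Those over all tested loci moved as well, from 6899 at 27 h to between 5489 and 6769 with 1 library left out. At 51 h they moved from 7293 to between 5583 and 7308. Without the 3 libraries that stand apart 7416 of all loci were called at 27 h. In the full fit more abundant loci were called lower than higher, 37.4% against 15.6% at 27 h and 41.0% against 13.4% at 51 h. Shares by direction in the other fits are not given. Neither the counts nor the directions below are therefore read as a trait of the 44 loci. At 27 h the calls among the 44 loci were 7 without no nitrogen replicate 1 (1 higher and 6 lower), 4 without no nitrogen replicate 2 and 2 without no nitrogen replicate 3. They were 2 without nitrate replicate 1, 3 without nitrate replicate 2 and 1 without nitrate replicate 3. At 51 h the called loci changed without no nitrogen replicate 1, a library that stands apart. There 3 were called, 0 higher and 3 lower, so that neither Locus_514 nor Locus_2174 was called higher. In both of these loci the remaining libraries without nitrogen still lay above all nitrate libraries at 51 h, so the calls were lost and the direction was kept. The count at 51 h was 1 without no nitrogen replicate 2, 1 without no nitrogen replicate 3 and 3 without nitrate replicate 1 (1 higher and 2 lower). It was 0 without nitrate replicate 2, with 4 at an unadjusted p under 0.05, and 0 without nitrate replicate 3, with 3 at that level. Without all 3 libraries that stand apart there were 7 calls at 27 h, 1 higher and 6 lower, and 2 at 51 h, 1 higher and 1 lower. With replicate as a block the count was 5 at 27 h and 4 at 51 h. Within run 1 alone edgeR called 0 of the 44 loci at both times, with 0 at an unadjusted p under 0.05. Within run 2 alone it called 5 at 27 h, all lower, and 0 at 51 h, with 2 at an unadjusted p under 0.05. Run 1 holds 1 library of each group at 51 h and run 2 holds 1 of each at 27 h, and these fits take the spread from the other groups of the run. On TPM values limma called 0 of the 44 loci at both times, with 0 at an unadjusted p under 0.05.

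Scatter between replicates was not part of the rule, although group means of scattered loci are less likely to stay close. The SD of log2 normalized counts within groups, pooled over the 13 groups, ran from 0.08 for Locus_2174 to 0.47 for Locus_140, with a median of 0.18, against a median of 0.21 over the other abundant loci. Next to these ends were Locus_234 at 0.08 and Locus_717 at 0.31. The mean coefficient of variation within groups had a median of 10.96% against 13.04%. The spread over all 39 libraries also holds the differences between groups that the rule limited, and is a description: it was within 2-fold in 32 of the 44 loci and in 28 of the other 566.

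Locus_2174, with the smallest scatter, had 1385, 1427 and 1378 normalized counts without nitrogen at 51 h, 1346, 1462 and 1572 with glutamate, 1126, 1076 and 1041 with glutamine and 1159, 1095 and 1141 with nitrate. At that time the glutamine and nitrate libraries were all below those without nitrogen and with glutamate, with no overlap. At 27 h it had 1295, 1306 and 1364 without nitrogen, 1374, 1382 and 1274 with glutamate, 1096, 1090.2 and 1099.7 with glutamine and 1160.2, 1134 and 1146 with nitrate. The media split in the same way there, again without overlap. At 3 h the values were 1496, 1269 and 1203 without nitrogen, 1233, 1256 and 1224 with glutamate, 1296, 1249.9 and 1229 with glutamine and 1348, 1465 and 1184 with nitrate, and the inoculum had 1140.1, 1125 and 1070.2. The 4 media overlapped at 3 h. The range of its group means was 0.43, between 1460.2 ± 113 with glutamate and 1081 ± 43.1 with glutamine, both at 51 h (SD, n = 3).

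Locus_140 was the most scattered, with a range of 0.45 between group means and a coefficient of variation of 28.4% within groups. Without nitrogen it had 2694, 2865 and 3058 normalized counts in replicates 1, 2 and 3 at 3 h, 2446, 2534 and 3316 at 27 h, and 2212, 2274 and 3873 at 51 h. With glutamate it had 3145, 3402 and 3098 at 3 h, 2175, 2457 and 3699 at 27 h, and 2915, 2558 and 4427 at 51 h, again in the order of replicates 1, 2 and 3. In both media replicate 3 was above the others at 27 and 51 h. With glutamine the values were 3268, 3139 and 3166 at 3 h, 2806, 2660.0 and 5235 at 27 h, and 2309.7, 2038 and 5704 at 51 h. With nitrate they were 3284, 3052 and 3366 at 3 h, 2405, 2703 and 5199 at 27 h, and 1983, 2876 and 5910.2 at 51 h, and in the inoculum 3128, 2824 and 5381. Replicate 3 stood highest in every group except glutamate and glutamine at 3 h. With glutamine or nitrate at 27 and 51 h it lay at 5199 to 5910.2, while replicates 1 and 2 lay at 1983 to 2876.

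A difference between repeats of the experiment within groups is a measure that the rule did not use, since every group holds each repeat once. Repeat 3 against repeat 1, fitted by edgeR with the 13 group means as covariates, gave 6 calls among the 44 loci, 4 higher and 2 lower in repeat 3. That is 13.6% of them, near the 15.7% called over all 17569 tested loci (8.13% higher and 7.56% lower), while 29.3% of the 610 abundant loci were called (12.1% higher and 17.2% lower). Repeat 3 was sequenced wholly in run 2 and repeat 1 wholly in run 1, so repeat and run cannot be told apart in this comparison. The median log2 fold change was 0.02 over the 44 loci and 0.02 over all tested loci. The 95% interval lay within 0.5 of zero for 95.5% of the 44 loci and for 78.4% of the abundant loci. Loci with much scatter within groups are less likely to meet the rule, and that scatter also sets the width of this interval. Nothing is read from that gap.

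The largest rise between repeats was that of Locus_140. It had a lowest of 3058, a median of 3873 and a highest of 5910.2 normalized counts over the 13 libraries of repeat 3, and a lowest of 1983, a median of 2694 and a highest of 3284 over those of repeat 1. Repeat 3 was above repeat 1 in 11 of 13 groups, and the log2 difference was 0.68 (SE 0.11, edgeR adjusted p = 1.31e-04). Locus_3094 was also higher in 11 of 13 groups, by 0.23 (SE 0.07, edgeR adjusted p = 0.0197), a call lost in the edgeR fit without nitrate 51 h replicate 1.

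Both called falls were regular across groups. Locus_2264 had a lowest of 849, a median of 1034 and a highest of 1252 in repeat 3, and a lowest of 1094, a median of 1334 and a highest of 1595 in repeat 1. It was lower in repeat 3 in 13 of 13 groups, and its log2 fold change was -0.35 (SE 0.06, edgeR adjusted p = 2.13e-04). Locus_717 had a lowest of 3269, a median of 6525 and a highest of 8681 in repeat 3, and a lowest of 6582, a median of 8566 and a highest of 10271 in repeat 1. It was lower in 12 of 13 groups, and the log2 difference was -0.41 (SE 0.10, edgeR adjusted p = 0.00397). By limma on log2(TPM + 1), where the median over all loci was 0.60, the difference was 0.36 for Locus_2264 and 0.29 for Locus_717, both below that median. Locus_84 and Locus_3437 were also called, both higher in repeat 3. The count of calls was 3 without glutamate 27 h replicate 3 and otherwise 4 to 7 when 1 library was left out, and 6 without the 3 libraries that stood apart.

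Run 2 against run 1, fitted in the same way across all repeats, gave 3 calls among the 44 loci, or 6.82%, beside 6.79% over all tested loci (3.09% higher and 3.70% lower) and 13.8% over the abundant ones (1.97% higher and 11.8% lower). Runs are spread unevenly over the groups, so the rule could act weakly on this measure. All of repeat 1 is in run 1 and all of repeat 3 in run 2. These calls are therefore not separate from those of repeat 3 against repeat 1. Locus_140 was higher in run 2, and the log2 difference was 0.45 (SE 0.13, edgeR adjusted p = 0.0329). Its medians were 2694, 2703 and 3873 normalized counts in repeats 1, 2 and 3. The libraries of repeat 2 in run 2 lay between 2038 and 2876. Locus_2264 and Locus_717 were lower. The log2 difference was -0.26 for Locus_2264 (SE 0.06, edgeR adjusted p = 0.00794) and -0.29 for Locus_717 (SE 0.09, edgeR adjusted p = 0.0462). With 1 library left out at a time, the call of Locus_717 was lost in 24 of 39 edgeR fits and that of Locus_140 in 10 of 39, with the direction kept in each, and that of Locus_2264 in 0 of 39. With replicate as a block, where only replicate 2 spans both runs, edgeR called 0 of the 44 loci and 0 of all loci. Of the 44, 9 had an unadjusted p under 0.05, and of all loci 2214. The log2 fold changes of Locus_140, Locus_2264 and Locus_717 were then -0.40, 0.00811 and 0.054. DESeq2 called 5 of the 44, and edgeR 3 without the 3 libraries that stand apart. Leaving out 1 library, edgeR called 1 of the 44 without glutamate 27 h replicate 1 or 3, glutamate 51 h replicate 3, glutamine 27 h replicate 1 or 3, nitrate 27 h replicate 1 or 3, nitrate 51 h replicate 1 or no nitrogen 51 h replicate 1, and 2 to 4 without any other.

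Steadiness in libraries that played no part in the choice was read by applying the rule to 2 repeats and measuring the third. Repeats 2 and 3 chose 34 loci. Over the 13 libraries of repeat 1, their range from the lowest to the highest library had a median of 0.55 on the log2 scale, and 94.1% of them stayed under 1, a 2-fold span, against 31.4% of all 708 loci as abundant. Repeats 1 and 3 chose 23 loci, and all of these (100%) stayed under 1 in repeat 2, with a median range of 0.49, against 29.5% of 643 abundant loci. The loci over 1 in repeat 1 numbered 2, and the widest, Locus_2653, had a range of 1.05.

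Repeat 3 gave a wider spread. The 44 loci chosen from repeats 1 and 2, of which 24 were among the final 44, had a median range of 0.94 over the libraries of repeat 3, and 61.4% stayed under 1, against 22.2% of 495 abundant loci. With no nitrogen 27 h replicate 3 left out of the range the share was 79.5% and the median 0.71, against 27.7% of the abundant loci. That library was picked after its values were seen, and leaving out any library can only narrow a range. With glutamate 51 h replicate 3 left out instead, the share was 65.9%, against 25.3% of the abundant loci. The 3 held-out shares under 1 averaged 85.2%, with an SD of 20.8. The 3 choices share repeats and hold different loci, so this SD is not a spread between independent experiments. Under 0.5 lay 35.3%, 52.2% and 4.55% with repeats 1, 2 and 3 held out, against 3.25%, 4.04% and 0.61% of the abundant loci. These ranges are over single libraries, while the rule set its limit of 0.5 on group means.

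**Figure D4:**
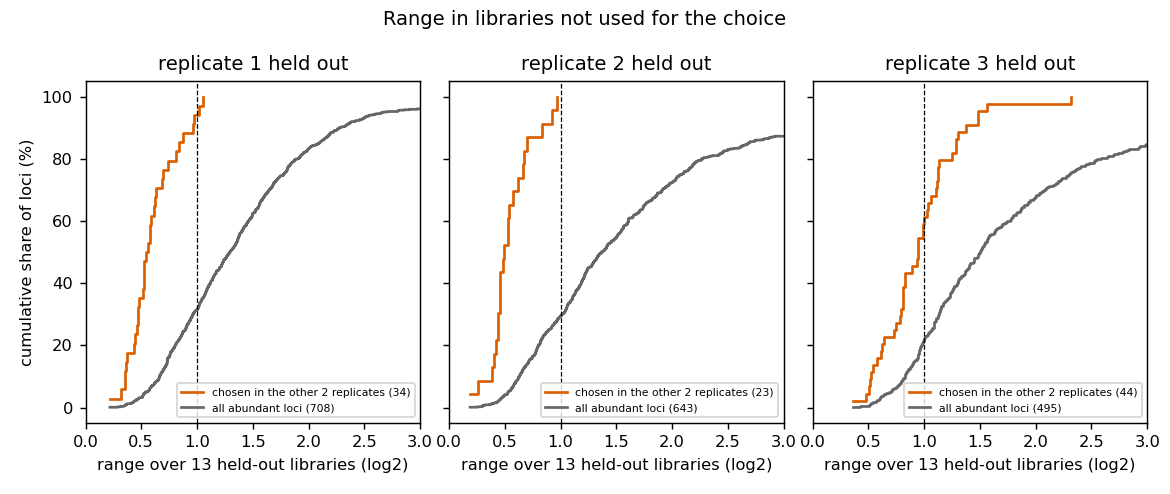
Cumulative share of loci (vertical, %) by their range over the 13 libraries of a repeat that was not used to choose them (horizontal, log2, cut at 3), for loci chosen in the other 2 repeats and for all loci as abundant there. The chosen loci lie left of the abundant ones in each panel, with medians of 0.55, 0.49 and 0.94 for replicates 1, 2 and 3 held out.

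The list changed when a repeat was left out. Without repeat 1 the rule chose 34 loci, of which 20 were among the 44, without repeat 2 it chose 23 with 17 shared, and without repeat 3 it chose 44 with 24 shared. Only 9 of the 44 were chosen whichever repeat was left out: Locus_234, Locus_1622, Locus_191, Locus_338, Locus_3278, Locus_61, Locus_2174, Locus_514 and Locus_2264, named here after their values were seen. Locus_2179, with the smallest range, is not among them. Of the 9, Locus_514 and Locus_2174 were called higher without nitrogen at 51 h, and Locus_2264 was called lower in repeat 3 and in run 2. By total-count scaling or on TPM values none of the 9 met the rule. Without the 3 libraries that stand apart 47 loci met the rule, 37 of them shared.

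The library in which the 44 loci departed most from their group was no nitrogen 27 h replicate 3. There, 12 of the 44 loci differed by at least 0.5 in log2 from the mean of the other libraries of the group, against 0 to 7 in every other library. Of all 610 abundant loci, 224 differed by as much in that library. Locus_717 was lowest against its group, at 3269 normalized counts against a mean of 8488 in the other replicates, and Locus_536 was at 2044 against 4104. Locus_207 was highest, at 12024 against 7253, followed by Locus_235 at 11276 against 7318 and Locus_36 at 29718 against 19475. Next came nitrate 3 h replicate 2 with 7 of the 44 loci and glutamine 51 h replicate 3 with 6. Over the 610 abundant loci no nitrogen 27 h replicate 3 was not singular, since 223 differed by as much in nitrate 3 h replicate 2 and 219 in nitrate 3 h replicate 1.

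The range of the 44 loci depended on how the libraries were scaled and on the measure used. With TMM scaling 46 loci met the rule, 42 of the 44 among them. Divided by total counts instead, 0 of the 44 met the rule, their median range was 0.98, and 4 other loci met the rule. On the authors' TPM values 0 of the 44 did so either, with a median range of 1.04, against 1.46 over the other abundant loci. Of the 610 abundant loci, 1 had a TPM range under 0.5. TPM differed from counts by more than a factor per library. From no nitrogen 27 h replicate 1 to replicate 3, Locus_36 went from 20862 to 29718 normalized counts and from 1741 to 6767 TPM. Locus_2179 went from 1087 to 1059 normalized counts and from 33.6 to 55.5 TPM. The cause of this difference between loci was not tested.

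The share of all counts at the 44 loci was 1.67% to 4.27% in the 19 libraries of run 2, with a median of 2.07%, and 1.19% to 4.07% in the 20 libraries of run 1, with a median of 1.51%. The share at Locus_10041 moved the other way, with medians of 17.5% in run 2 and 22.1% in run 1. By repeats 1, 2 and 3 the medians were 1.38%, 1.97% and 2.07% at the 44 loci and 23.9%, 19.4% and 17.5% at Locus_10041. Run and repeat overlap, and which of them these shares follow was not tested. In glutamate 51 h replicate 3 and nitrate 3 h replicate 2, where Locus_10041 was lowest, the 44 loci took 4.27% and 4.07%. The part of Locus_10041 or other abundant RNA in the total-count result was not tested. A scaling factor formed from the geometric mean of the 44 loci stayed within -0.16 to 0.27 of the TMM factor in log2 and within -0.13 to 0.22 of the median-of-ratios factor, and between -0.64 and 1.16 of the total count. Since the rule chose loci that are level after median-of-ratios scaling, nothing is read from that contrast.

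**Figure D5:**
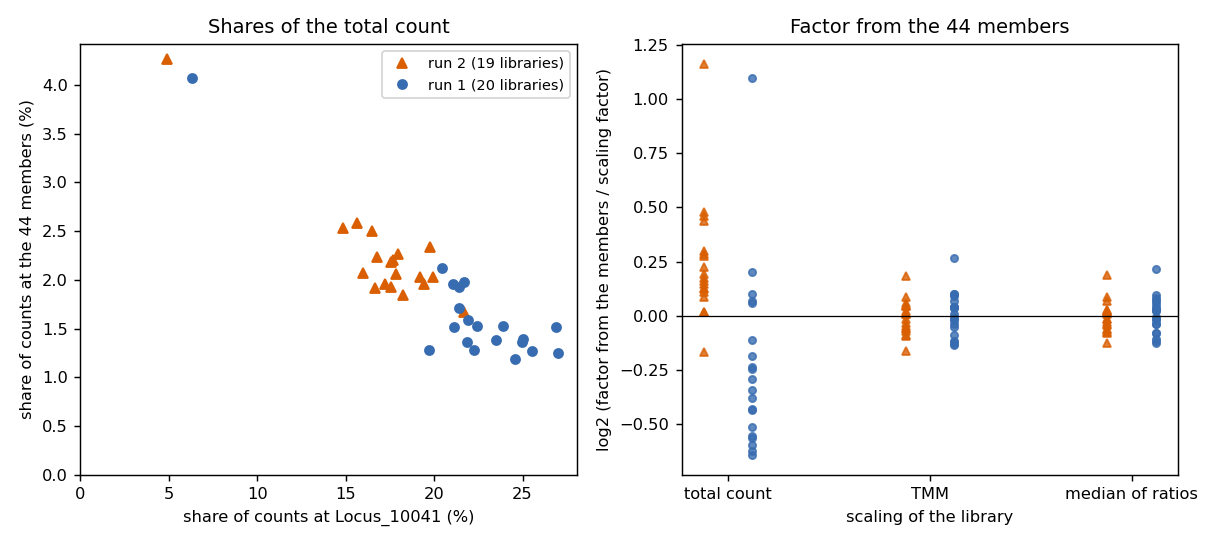
Left, share of counts at the 44 steady loci against the share at Locus_10041 in each library (%). Right, log2 of a factor from the geometric mean of the 44 loci over the scaling factor by total count, TMM or median of ratios, for each library. The 2 libraries with least Locus_10041 have the largest shares at the 44 loci, 4.27% and 4.07%, and the right panel spans -0.64 to 1.16 for total counts and -0.13 to 0.22 for median of ratios.

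Ratios between 2 loci of the same library are free of the library scaling. Over the 946 pairs of the 44 loci, the SD of the log2 ratio across 39 libraries had a median of 0.26, and it was under 0.2 in 153 pairs. The steadiest ratio was that of Locus_2179 to Locus_234, with an SD of 0.12 and a whole span of 0.47 in log2. Averaged over its ratios to the other 43 loci, the SD was lowest for Locus_2179 at 0.20, then Locus_234 at 0.22 and Locus_191 at 0.22. It was highest for Locus_140 at 0.44 and Locus_717 at 0.33. The same average, taken against the 44 loci, had a median of 0.51 over 565 other abundant loci with counts in every library. The rule that chose the 44 loci bears on these values, which carry no test.

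Relative length was read from the ratio of counts to TPM, as the median over the libraries, since this ratio moved between libraries. It was set to 1 at the median of 9128 loci with at least 10 counts in every library. The 44 loci had a median of 1.02, with 22 of them shorter than that median locus, and ran from 0.18 for Locus_2391 to 3.92 for Locus_493. The other abundant loci had a median of 0.96.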

How the data were processed

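RNA was measured in 39 libraries of Dunaliella viridis, 3 in each of 13 groups. Per the labels' protocols, total RNA was depleted of rRNA, made into strand-specific libraries and sequenced in 2 flow cells, called runs here. FastQC, RSEM, STAR and edgeR 3.4.0 appear in the submitters' processing notes with no role given, and no source used here names the genome or transcript set. Deposited values are whole-number read counts per locus, and the deposited TPM values are the authors' length-scaled values, used for levels between loci and as an alternative. All deposited columns matched a sample.

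Counts were divided by DESeq2 1.42.0 median-of-ratios size factors, and the rule given in the report was applied. The SD within groups is of log2(normalized count + 0.5). Tests used edgeR 4.0.16 in R 4.3.3 with TMM factors, a low-count filter that kept 17569 loci and Benjamini-Hochberg adjustment over these at 0.05; DESeq2 and limma 3.58.1 were alternatives, and the code was tested on simulated data. For the held-out repeat, size factors were computed without it. Intervals are at 95%. Per the labels, the replicate number marks a repeat of the whole experiment and so pairs libraries: deviations from group means correlated at a mean r of 0.0964 over 234 same-numbered pairs and -0.0477 over 468 other pairs, and over the 44 loci alone at 0.224 and -0.109. Deviations cancel within a group, so the negative values of the other pairs largely follow from the positive ones and are no separate comparison. No replicate pair differed by less than sampling noise (lowest chi-square per degree of freedom 5.63).

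The loci named are the 5 with the smallest range, the 5 with the highest TPM, the 2 with the largest and the 2 with the smallest scatter, those next to each limit, and up to 2 called in each direction for run and for repeat. Any other locus named, such as Locus_84, Locus_235, Locus_493, Locus_536, Locus_1487, Locus_2653, Locus_3278 and those chosen whichever repeat was left out, was picked after its values were seen. Members and lists were chosen with earlier results of these data known. No gene list was used, since no ID is paired with a name.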

Additional observations from a re-analysis of the deposited data

How the results depend on the processing

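The number of steady loci, 44, was 46 with TMM scaling, 47 by group medians and 47 without the 3 libraries that stand apart. It was 4 by total-count scaling, 1 on TPM values, 15 with a range under 0.4, 82 with a range under 0.6, 92 with a mean of at least 500 and 24 with a mean of at least 2000. Leaving out a replicate number or 1 library gave 23 to 52. The held-out share of 85.2%, a mean of 3 choices, was 30.7% with a limit of 0.5. With repeat 3 held out it was 4.55% at that limit, against 0.61% of the abundant loci.

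For run 2 against run 1, the 3 members called became 5 by DESeq2, 43 by limma on log2(TPM + 1), 43 on log2(TPM + 0.1) and 0 with the replicate block, and 1 to 4 with 1 library left out. Over all loci the 1193 calls became 14493 and 14295 by limma and 0 with the replicate block. They ranged from 467 without glutamate 27 h replicate 3 to 2126 without nitrate 3 h replicate 2, and were 677 without glutamate 51 h replicate 1 and 756 without nitrate 51 h replicate 1. The TPM scale moved the median log2 difference of all loci to 0.47 and 0.58 with the 2 pseudocounts for run, and to 0.60 and 0.73 for repeat. Against that shift Locus_717 was at 0.25 and 0.25 and Locus_2264 at 0.30 and 0.30 for run, and at 0.29 and 0.29 and 0.36 and 0.36 for repeat. The replicate block gave 0.054 for Locus_717, 0.00811 for Locus_2264 and -0.40 for Locus_140. For repeat 3 against repeat 1, the 6 members became 43 and 43 by limma, with 14950 and 14739 of all loci, and 3 to 7 members and 1896 to 3071 loci with 1 library left out. No replicate block can be added there, since the repeat is the contrast.

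For no nitrogen against nitrate at 27 h, the 5 members became 0 and 0 by limma and 0 in run 1 alone, and 1 to 7 with 1 library left out. Over all loci 6899 calls became 1892 and 1785 by limma, 4164 in run 1 alone and 4448 in run 2 alone, and 5489 to 6769 with 1 library left out. At 51 h the 2 members became 0 and 0 by limma, 4 with the replicate block, 0 in run 1 alone and 0 in run 2 alone, and 0 to 3 with 1 library left out. Over all loci 7293 calls became 2151 and 1946 by limma and 2172 in run 1 alone, and 5583 to 7308 with 1 library left out. The replicate block changed no other count of calls by more than 1.5 times. The cause of these changes was not tested, except that fits within 1 run hold fewer libraries. Single counts of members reached down to 244 reads.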
